A study of Mus musculus with 12 samples.

Results

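The genes described here were 34 genes of cholesterol metabolism, chosen by symbol with earlier results of these data known. They comprise 17 enzymes of the mevalonate pathway and of squalene and sterol synthesis, 5 genes of the SREBP control system, 6 genes of LXR signalling and cholesterol efflux, 2 enzymes of fatty acid synthesis, and 4 genes of sterol transport and storage. All 34 were among the 26699 gene symbols of the count files, and 33 passed the filter on low counts that left 11927 genes for testing.

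Synovium, the membrane that lines the joint, was taken from wild-type C57BL/6 mice and kept as explants for 4 h with 100 nM CGRP, the calcitonin gene-related peptide released by sensory nerve fibres, or with vehicle. The tissue was then digested with collagenase, and 2 MHC class II-positive macrophage subsets were sorted for bulk sequencing of total RNA: MHCII+CD11c- macrophages (titled IAIE) and MHCII+CD11c+ macrophages (titled CD11c). There were 3 libraries in each of the 4 groups of subset and treatment, 12 in all. The sources used here give no age for the mice of these explants beyond a general range for in vivo work, and do not say whether the libraries of a group came from separate mice. The p-values therefore measure the spread between these samples, which may be technical. The comparisons asked how CGRP changed each subset and how the subsets differed from each other.

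Cells make cholesterol from acetyl-CoA through mevalonate, isoprenoid units, squalene and lanosterol, and the sterols are then trimmed by a chain of demethylases, isomerases and reductases. When sterols in the endoplasmic reticulum fall, the escort protein SCAP carries SREBP transcription factors to the Golgi, where they are cut and released to switch on the synthesis genes. INSIG proteins hold SCAP back when sterols are plentiful. Oxysterols instead activate the nuclear receptors LXRα and LXRβ, which switch on exporters such as ABCA1 and ABCG1. Macrophages, which take up lipoproteins and dying cells, rely on this export and on esterification of the excess.

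Totals per library ran from 2127191 to 5649698 counts. Levels are given in CPM, read counts scaled to library size by TMM, and the detection floor, set at 3 counts, was worth 0.534 to 1.34 CPM. The sort gates were visible in the RNA: Itgax, which encodes CD11c, was at 219 to 270 CPM in CD11c control libraries, 107 to 121 in CD11c CGRP libraries and 1.24 to 10.7 in all IAIE libraries. The 4 MHC class II markers summed to 37791 to 43675 CPM in CD11c control, 26339 to 31512 CPM in CD11c CGRP, 14574 to 18390 CPM in IAIE control and 10650 to 12902 CPM in IAIE CGRP libraries. The 8 macrophage markers also summed to less in CD11c CGRP (6382 to 7445 CPM) than in CD11c control libraries (7965 to 10164 CPM), without overlap. They gave 7598 to 9742 CPM in IAIE control and 8341 to 8934 CPM in IAIE CGRP libraries, and each of the 8 was over 3 counts in at least 1 library of every group. The 7 dendritic cell markers summed to 634 to 696 CPM in CD11c control, 670 to 774 CPM in CD11c CGRP, 108 to 173 CPM in IAIE control and 89.2 to 116 CPM in IAIE CGRP libraries.

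In CD11c+ macrophages, CGRP raised 8 of the 33 tested members and lowered none, where 6.29% of all tested genes rose and 4.59% fell (edgeR quasi-likelihood test, Benjamini-Hochberg adjusted p under 0.05). The count rested on all 6 CD11c libraries: it was 2 without CD11c control replicate 1, 3 without CD11c control replicate 2 or 3 or CD11c CGRP replicate 1 or 2, and 4 without CD11c CGRP replicate 3. After thinning to the lowest library total it was 4, and in the other alternative fits 6 to 10. Of these 8, 5 were synthesis enzymes at different points of the pathway (Hmgcs1, Idi1, Cyp51, Msmo1 and Sc5d), and the others were the exporter gene Abca1, the lysosomal sterol carrier gene Npc2 and the esterifying enzyme gene Soat1. The median log2 fold change was 0.66 over the 16 tested synthesis genes, 0.10 over the 17 members outside synthesis and 0.00 over all tested genes. On the same scale, 14 of the 16 synthesis genes lay above 0, as did 5980 of all 11927. Because the members were chosen with earlier results known, these shares are no test of the members as a set.

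Idi1, which encodes the isomerase that interconverts the isoprenoid units IPP and DMAPP (chr13:8885501-8892451 in the mouse build mm10, GENCODE M21), changed most among the 8. The counts in CD11c+ macrophages were 36, 89 and 77 in control replicates 1 to 3 and 201, 199 and 404 in CGRP replicates 1 to 3, or 14.7, 20.8 and 16.5 CPM against 38.5, 49.3 and 71.9 CPM. In CD11c- macrophages the counts were 21, 22 and 9 in control and 11, 22 and 13 in CGRP libraries, or 6.51, 6.31 and 4.03 CPM against 2.91, 5.35 and 2.45 CPM. Every CD11c CGRP library was above every CD11c control library, and both lay above all IAIE libraries. The rise in CD11c+ macrophages was 3.05-fold (log2 1.61 ± 0.29 SE, n = 3 against 3, edgeR adjusted p = 0.00101). This call held in all 12 fits that left out 1 library. Of the 50-base words of the Idi1 exons, 25.3% also occur in other gene models, most of them in the predicted gene Gm13502, so part of its counts may be shared.

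Hmgcs1, which encodes the cytosolic synthase that makes HMG-CoA at the entry to the mevalonate pathway (chr13:119690379-119708260), had 85, 128 and 142 counts in CD11c control and 253, 218 and 271 in CD11c CGRP libraries, or 34.7, 29.9 and 30.5 CPM against 48.5, 53.96 and 48.2 CPM. In CD11c- macrophages Hmgcs1 counts were 53, 44 and 46 in control and 67, 92 and 90 in CGRP libraries, or 16.4, 12.6 and 20.6 CPM against 17.7, 22.4 and 16.97 CPM. The CD11c groups did not overlap, and the IAIE groups did. The 1.59-fold rise in CD11c+ macrophages (log2 0.67 ± 0.21 SE) was close to the threshold (edgeR adjusted p = 0.0455). It was not called without any 1 of the 6 CD11c libraries or any 1 of the 3 IAIE CGRP libraries (adjusted p 0.0502 to 0.162). It also missed the threshold in 5 of the 10 other fits, namely with RLE scaling (0.0527), upper-quartile scaling (0.0644), every gene of at least 1 count (0.107), the replicate number as a block (0.0548) and thinning (0.0898).

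Cyp51, the lanosterol demethylase that takes the first step after the sterol ring closes (chr5:4081145-4104746), had 58, 101 and 108 counts in CD11c control and 186, 184 and 244 in CD11c CGRP libraries, or 23.7, 23.6 and 23.2 CPM against 35.7, 45.5 and 43.4 CPM. The counts in CD11c- macrophages were 39, 30 and 25 and 28, 42 and 59, or 12.1, 8.60 and 11.2 CPM in control against 7.41, 10.2 and 11.1 CPM in CGRP libraries. Again the CD11c groups were apart and the IAIE groups overlapped. The rise was 1.77-fold in CD11c+ macrophages (log2 0.82 ± 0.23 SE, edgeR adjusted p = 0.0250). Cyp51 was not called without CD11c control replicate 1, 2 or 3 or CD11c CGRP replicate 2 or 3 (0.0653 to 0.112), with every gene of at least 1 count (0.0622) or after thinning, where the log2 change was 0.48 (0.281).

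Msmo1, the methylsterol monooxygenase that acts after Cyp51 (chr8:64718139-64733792), had 56, 139 and 157 counts in CD11c control and 249, 226 and 261 in CD11c CGRP libraries, or 22.8, 32.5 and 33.7 CPM against 47.8, 55.9 and 46.4 CPM. For CD11c- macrophages the counts were 60, 77 and 57 and 96, 121 and 186, or 18.6, 22.1 and 25.5 CPM in control against 25.4, 29.4 and 35.1 CPM in CGRP libraries. The lowest CD11c CGRP library exceeded the highest library of each other group. Msmo1 rose 1.67-fold in CD11c+ macrophages (log2 0.74 ± 0.21 SE, edgeR adjusted p = 0.0269). This call was lost without any 1 of the 6 CD11c libraries (0.0512 to 0.127).

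Sc5d, the desaturase that introduces a double bond near the end of the pathway (chr9:42251595-42264256), had 9, 43 and 34 counts in CD11c control and 113, 81 and 91 in CD11c CGRP libraries, or 3.67, 10.1 and 7.29 CPM against 21.7, 20.05 and 16.2 CPM. CD11c- macrophages gave 71, 41 and 19 counts in control and 63, 66 and 68 in CGRP libraries, or 22.02, 11.8 and 8.51 CPM against 16.7, 16.04 and 12.8 CPM. Unlike the preceding genes, Sc5d had its lowest mean in CD11c control libraries, and its CD11c CGRP libraries overlapped the IAIE libraries. Sc5d rose 2.67-fold in CD11c+ macrophages (log2 1.42 ± 0.37 SE, edgeR adjusted p = 0.0166). It was not called without CD11c control replicate 1 or 3 or CD11c CGRP replicate 1 (0.0607 to 0.0710) or after thinning (0.0518).

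**Figure D1:**
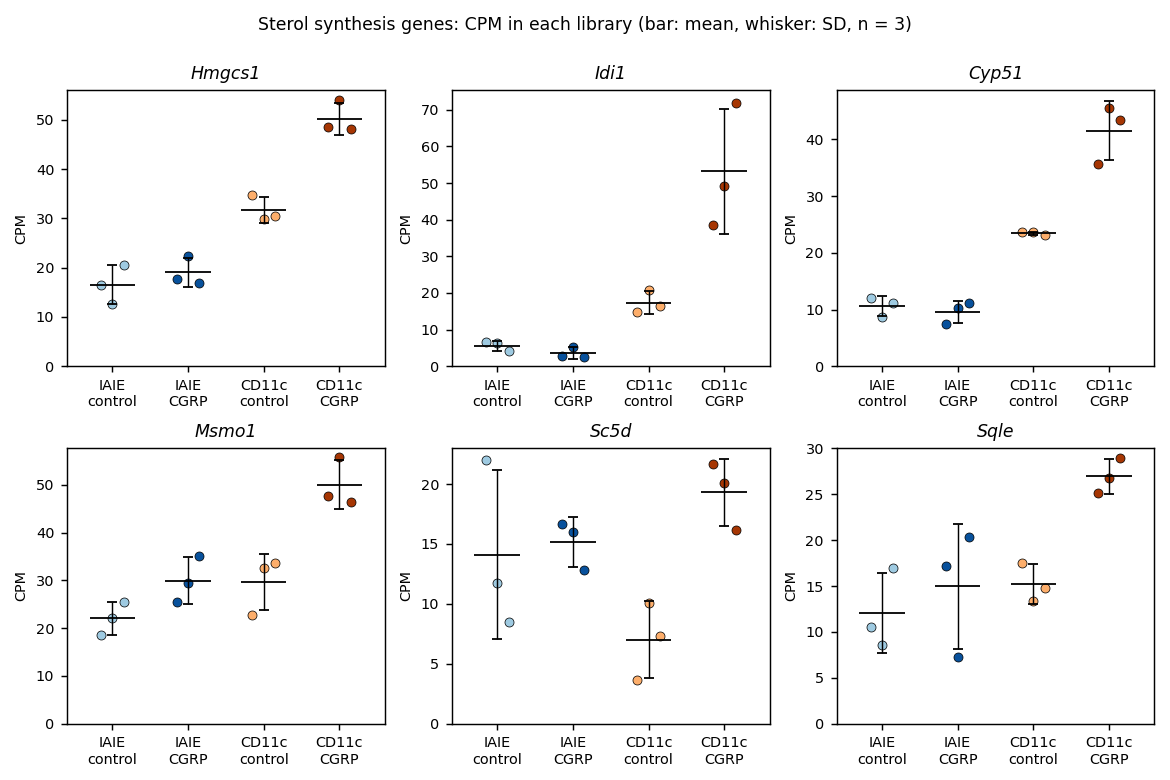
CPM (linear axis, TMM-scaled) of Hmgcs1, Idi1, Cyp51, Msmo1, Sc5d and Sqle in each of the 12 libraries, by subset (IAIE, CD11c) and treatment. Points are libraries, horizontal bars group means and whiskers SD (n = 3). The CD11c CGRP libraries lie above the CD11c control libraries for each of the 6 genes, with Idi1 at 38.5, 49.3 and 71.9 CPM there, while the IAIE groups overlap. Sqle did not pass the test (adjusted p = 0.123).

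Of the 12 synthesis genes not called in CD11c+ macrophages, 11 were tested. Squalene epoxidase, Sqle, rate-limiting in the squalene branch, went from 15.2 ± 2.14 to 26.95 ± 1.95 CPM (mean ± SD, n = 3) with no overlap between the groups (log2 0.83 ± 0.33 SE, edgeR adjusted p = 0.123). It passed in the limma-voom fit (0.0442) and with the compared libraries alone (0.0335). Squalene synthase, Fdft1, went from 20.8 ± 0.368 to 30.7 ± 5.01 CPM, also without overlap (log2 0.56 ± 0.26 SE, edgeR adjusted p = 0.221). However, 18.3% of its exon length lies antisense to the abundant protease gene Ctsb, and the strand setting of the counting is not given in the sources used here. Among mevalonate enzymes, the kinases Mvk and Pmvk and the decarboxylase Mvd had log2 estimates of 0.04 ± 0.72, 0.28 ± 0.37 and 0.55 ± 0.45 (SE). The estimate was 0.74 ± 0.63 for the sterol cyclase Lss, 0.65 ± 0.76 for the sterol dehydrogenase Nsdhl, 1.02 ± 0.72 for the ketosteroid reductase Hsd17b7 and 0.25 ± 0.62 for the reductase Dhcr7 (log2, SE). None of these 7 passed (edgeR adjusted p 0.461 to 0.986). The isomerase Ebp (log2 -0.17 ± 0.29) and the sterol reductase Tm7sf2 (-1.56 ± 1.13) had estimates below 0 that did not pass either (edgeR adjusted p 0.798 and 0.476). Tm7sf2, Mvk, Dhcr7, Nsdhl, Lss and Hsd17b7 were low, with group means of 0.522 to 6.71 CPM in all 4 groups. Their SEs of 0.62 to 1.13 on the log2 scale left wide intervals. Fdps, the farnesyl diphosphate synthase, failed the low-count filter with 0 to 7 counts per library. Of its 50-base words, 26.2% also occur in other gene models, most of them in Gm43738, which overlaps it on the same strand.

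Added together, the 17 synthesis genes gave 199 to 212 CPM in CD11c control and 311 to 377 CPM in CD11c CGRP libraries. Their sums were 118 to 159 CPM in IAIE control and 143 to 168 CPM in IAIE CGRP libraries. The CD11c groups were therefore apart and the IAIE groups overlapped. Markers of fibroblasts, mural cells and chondrocytes were higher with treatment in the same CD11c libraries. Endothelial markers (19.1 to 186 CPM in control, 19.8 to 103 CPM in CGRP) and adipocyte markers (22.2 to 29.0 and 13.1 to 60.8 CPM) overlapped there. The 9 fibroblast markers summed to 207 to 277 CPM in CD11c control and 461 to 768 CPM in CD11c CGRP libraries (7 and 9 of the 9 over 3 counts in at least 1 library). The 7 mural cell markers summed to 26.2 to 34.3 and 57.9 to 362 CPM (5 and 7 of the 7, with Tagln at 0 in the control libraries). The 6 chondrocyte markers summed to 2.10 to 6.65 and 9.25 to 413 CPM (3 and 5 of the 6). In CD11c- macrophages the fibroblast markers summed to 359 to 1557 CPM in IAIE control and 570 to 2204 CPM in IAIE CGRP libraries (9 and 7 of the 9 over 3 counts). There the mural cell markers summed to 51.0 to 72.9 CPM in control and 64.5 to 168 CPM in CGRP libraries (6 of the 7 in both). The chondrocyte markers summed to 7.74 to 19.2 and 1.32 to 5.29 CPM (5 and 2 of the 6, with Cnmd and Chad at 0 in the CGRP libraries). The part of these cells in the rise of the synthesis genes was not tested, nor was that of the lower macrophage marker sums given above. In sorted bulk RNA, fewer cells of a type and less RNA per cell cannot be told apart.

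**Figure D2:**
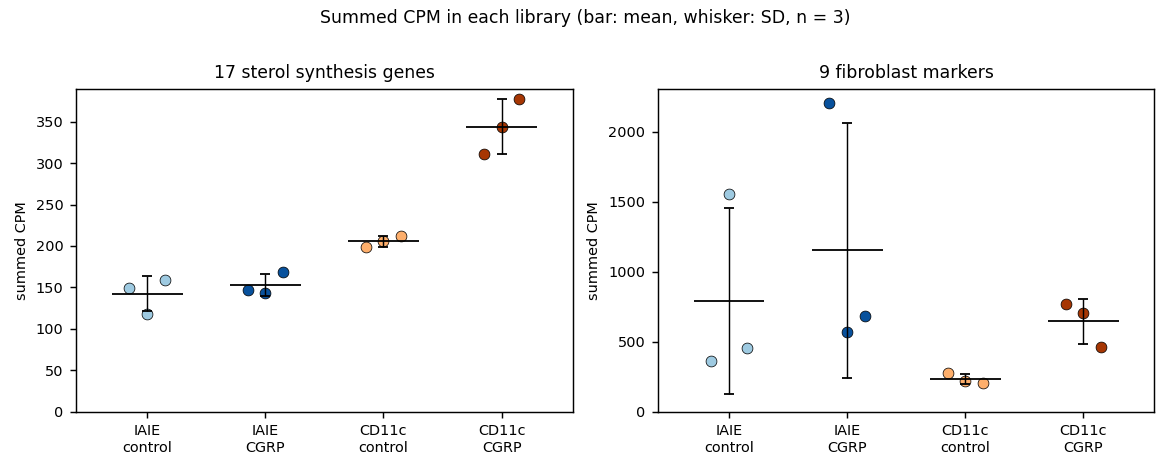
Summed CPM (linear axes) of the 17 synthesis genes (left) and of 9 fibroblast markers (right) in each library, by subset and treatment. Points are libraries, bars group means and whiskers SD (n = 3). The synthesis sum is highest in CD11c CGRP libraries (311 to 377 CPM) and lowest in IAIE libraries. The fibroblast sum is 207 to 277 CPM in CD11c control and 461 to 768 CPM in CD11c CGRP libraries, and reaches 2204 CPM in an IAIE CGRP library.

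To show the sequence context of the 5 called synthesis genes, their RefSeq promoter windows are printed. They cover 250 bases before and 50 after the annotated start (GRCm38.p6, 5′ to 3′ on the strand of the gene). Capitals mark the CCAAT box (CCAAT, or ATTGG on the other strand) and, in Hmgcs1 alone, the sterol regulatory element (TCACNCCAC, searched on both strands). Only these letters were searched, so variant forms of either motif are not marked and may be present. The windows were chr13:119690101-119690400 on the plus strand for Hmgcs1, chr13:8885356-8885655 on the plus strand for Idi1, chr5:4104648-4104947 on the minus strand for Cyp51, chr8:64733529-64733828 on the minus strand for Msmo1 and chr9:42264251-42264550 on the minus strand for Sc5d.
Hmgcs1: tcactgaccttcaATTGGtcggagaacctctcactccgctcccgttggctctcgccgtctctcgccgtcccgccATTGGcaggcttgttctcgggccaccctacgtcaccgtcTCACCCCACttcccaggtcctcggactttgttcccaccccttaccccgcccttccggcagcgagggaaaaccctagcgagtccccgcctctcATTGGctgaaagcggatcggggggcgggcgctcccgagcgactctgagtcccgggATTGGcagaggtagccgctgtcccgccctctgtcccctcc
Idi1: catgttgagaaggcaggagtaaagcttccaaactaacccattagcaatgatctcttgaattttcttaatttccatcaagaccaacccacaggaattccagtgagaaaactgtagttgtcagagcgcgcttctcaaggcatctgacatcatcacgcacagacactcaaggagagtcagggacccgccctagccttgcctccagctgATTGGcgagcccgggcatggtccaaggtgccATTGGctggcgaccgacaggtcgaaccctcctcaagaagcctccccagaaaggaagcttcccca
Cyp51: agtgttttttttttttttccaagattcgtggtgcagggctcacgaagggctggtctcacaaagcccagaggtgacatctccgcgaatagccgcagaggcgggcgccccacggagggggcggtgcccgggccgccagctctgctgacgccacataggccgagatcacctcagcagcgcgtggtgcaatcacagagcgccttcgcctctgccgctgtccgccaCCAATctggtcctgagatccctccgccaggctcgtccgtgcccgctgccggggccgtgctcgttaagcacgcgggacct
Msmo1: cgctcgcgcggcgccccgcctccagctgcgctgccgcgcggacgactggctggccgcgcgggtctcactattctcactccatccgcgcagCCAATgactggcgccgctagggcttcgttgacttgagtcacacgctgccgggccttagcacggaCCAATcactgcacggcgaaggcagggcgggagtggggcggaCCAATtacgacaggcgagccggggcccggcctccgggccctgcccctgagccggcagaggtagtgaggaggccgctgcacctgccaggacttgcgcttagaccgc
Sc5d: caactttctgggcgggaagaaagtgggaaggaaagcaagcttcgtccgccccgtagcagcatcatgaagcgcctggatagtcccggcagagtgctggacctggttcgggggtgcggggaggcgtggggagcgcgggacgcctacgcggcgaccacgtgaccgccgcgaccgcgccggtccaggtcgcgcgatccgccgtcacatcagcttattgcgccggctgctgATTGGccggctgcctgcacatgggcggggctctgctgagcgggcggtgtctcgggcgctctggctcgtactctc

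Each of the 5 windows held a CCAAT box within the last 60 bases before the start. With the start base counted as 1, its first base lay at -45 in Hmgcs1, -45 and -14 in Idi1, -29 in Cyp51, -55 in Msmo1 and -24 in Sc5d. Uncalled synthesis genes had such boxes too, at -14 in Mvk, -27 in Mvd, -20 in Nsdhl and -12 in Hsd17b7. Others lay at -55 in Ebp, -49 in Dhcr7 and -47 in Tm7sf2. The nearest box lay farther off in Lss (-62) and Pmvk (-136). How often a box lies this near was not counted over all windows. RefSeq gave 38 windows for 27 of the 34 members. A CCAAT box was found in at least 1 window of all 14 synthesis genes that had one (14 of 17 windows, 82.4%), against 9 of 21 windows of the other members (42.9%) and 37.4% of all 32851 promoter windows. The sterol regulatory element letters occurred in 1 of the 38 windows, at -137 in Hmgcs1, and in 1.24% of all windows. An E-box (CACGTG, the same on both strands; lower case in the windows above) was found in 7 of the 38 windows (18.4%), among them those of Sc5d and Abca1, and in 7.15% of all windows. The cAMP response element (TGACGTCA, the same on both strands) was in none of the 38 and in 1.79% of all. Each motif was searched by the letters given only, so shorter or variant forms were not counted. In the printed windows no match shared bases with a match of another motif.

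Outside synthesis, CGRP raised Abca1, Npc2 and Soat1 in CD11c+ macrophages. Abca1, the transporter that loads cholesterol onto lipid-poor apolipoproteins (chr4:53030787-53159895), had 1753, 3741 and 3624 counts in CD11c control and 5306, 4293 and 6480 in CD11c CGRP libraries, or 715, 875 and 778 CPM against 1018, 1063 and 1153 CPM. In CD11c- macrophages its counts were 4191, 5964 and 3533 and 6042, 5863 and 10374, or 1300.1, 1709.8 and 1581 CPM in control against 1599, 1424 and 1956 CPM in CGRP libraries. All CD11c libraries were below all IAIE libraries, the CD11c groups were apart, and the IAIE groups overlapped. The rise was 1.37-fold in CD11c+ macrophages (log2 0.45 ± 0.14 SE, edgeR adjusted p = 0.0374). The call was lost without any 1 of the 6 CD11c libraries (0.0590 to 0.184), after upper-quartile scaling (0.0626) and after thinning (0.0782).

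Npc2, the soluble protein that passes cholesterol out of the lysosome together with the membrane protein encoded by Npc1 (chr12:84754562-84773152), had 1089, 2060 and 2477 counts in CD11c control and 3563, 3040 and 3463 in CD11c CGRP libraries, or 444, 482 and 531 CPM against 683, 752 and 616 CPM. In CD11c- macrophages Npc2 had 1411, 1390 and 936 counts in control and 2586, 3036 and 2968 in CGRP libraries, or 438, 398 and 419 CPM against 684, 738 and 559.7 CPM. Treated and control libraries were apart in both subsets. The rise was 1.58-fold in CD11c- (log2 0.66 ± 0.13 SE, edgeR adjusted p = 0.00213) and 1.41-fold in CD11c+ macrophages (log2 0.49 ± 0.13 SE, edgeR adjusted p = 0.0154). The CD11c- call held in all 12 fits that left out 1 library. The CD11c+ call was lost without CD11c control replicate 1 or 2 or CD11c CGRP replicate 1 or 2 (0.0552 to 0.0836).

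Soat1, the acyltransferase that esterifies cholesterol for storage in lipid droplets (chr1:156424525-156474331), had 365, 646 and 743 counts in CD11c control and 1158, 1132 and 1530 in CD11c CGRP libraries, or 149, 151 and 159 CPM against 222, 280.2 and 272 CPM. Its counts in CD11c- macrophages were 669, 738 and 561 in control and 1132, 1347 and 2042 in CGRP libraries, or 208, 212 and 251 CPM against 299.6, 327 and 385 CPM. In both subsets each CGRP library exceeded each control library. The rise was 1.51-fold in CD11c- (log2 0.60 ± 0.14 SE, edgeR adjusted p = 0.00701) and 1.68-fold in CD11c+ macrophages (log2 0.75 ± 0.14 SE, edgeR adjusted p = 9.08e-04). Both calls held in all 12 fits that left out 1 library.

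Among the SREBP control genes none passed in CD11c+ macrophages. Srebf2, the factor that acts mainly on synthesis genes, went from 173 ± 22.6 to 208 ± 12.8 CPM without overlap (log2 0.26 ± 0.13 SE, edgeR adjusted p = 0.234). Insig2, which retains SCAP in the endoplasmic reticulum, went from 6.44 ± 4.94 to 16.00 ± 2.26 CPM (log2 1.24 ± 0.50 SE, edgeR adjusted p = 0.136). It passed in the fits with every gene of at least 1 count (0.0449) and with 1 surrogate variable (0.0437). Srebf1, Scap and Insig1 had log2 fold changes of -0.18 ± 0.17, -0.16 ± 0.32 and 0.04 ± 0.20 (SE). The StAR-related cholesterol carrier gene Stard4 went from 9.95 ± 3.58 to 17.8 ± 0.361 CPM without overlap (log2 0.86 ± 0.41 SE, edgeR adjusted p = 0.232). The LXR genes Nr1h2 and Nr1h3, the exporter gene Abcg1, Mylip, Apoe, the lysosomal Npc1 and the fatty acid enzymes Scd2 and Fasn did not pass either. Their log2 fold changes ran from -0.56 ± 0.22 for Fasn to 0.48 ± 0.43 for Scd2 (SE). Fasn went down from 60.9 ± 13.8 to 41.0 ± 6.33 CPM without overlap (edgeR adjusted p = 0.117).

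**Figure D3:**
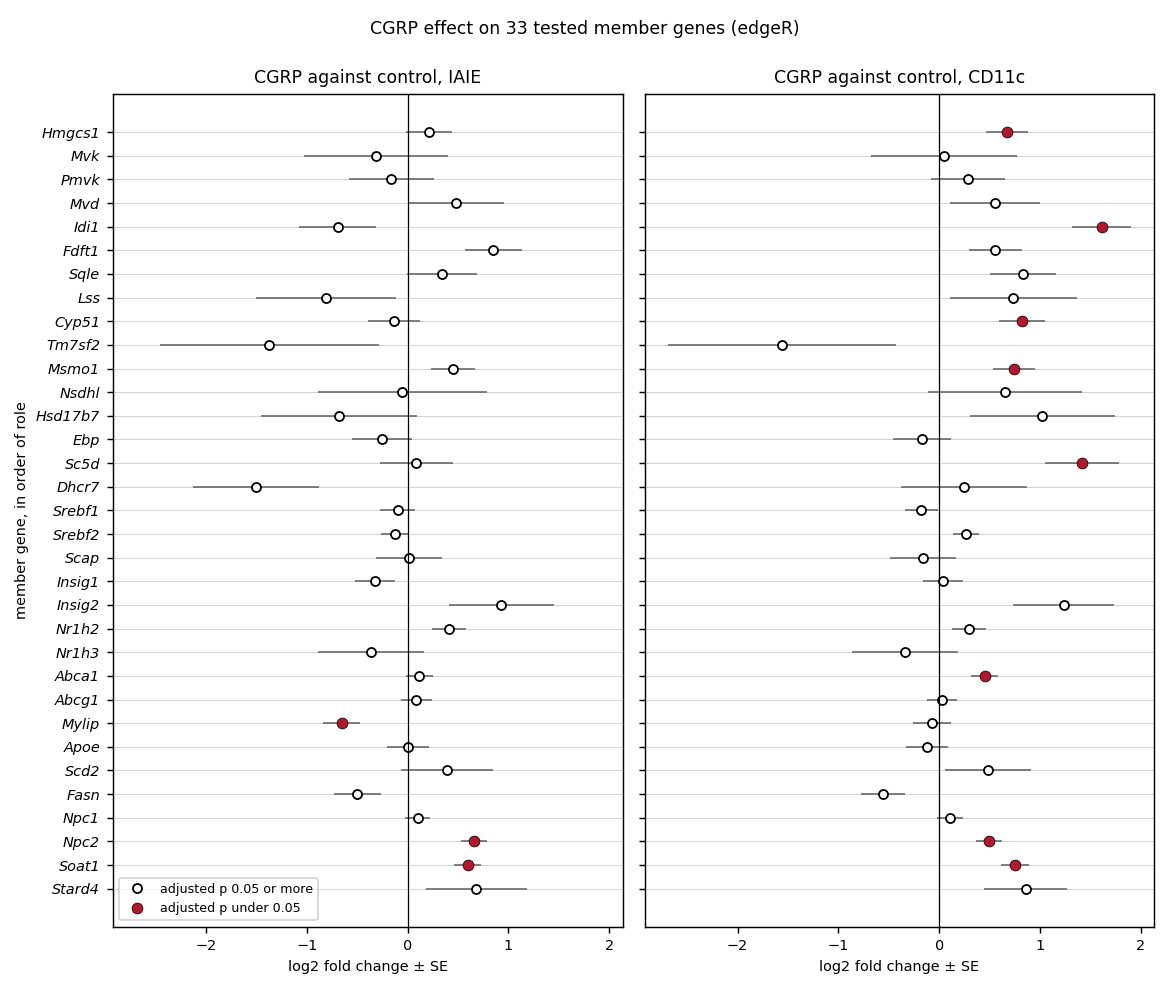
Log2 fold change of CGRP against control (x axis, whiskers SE) for the 33 tested member genes in IAIE (left) and CD11c (right) libraries, from the edgeR fit over 12 libraries. Filled points have an adjusted p under 0.05. On the right, 8 filled points lie above 0, led by Idi1 at 1.61 ± 0.29. On the left Npc2 and Soat1 lie above 0 and Mylip below, at -0.65 ± 0.19.

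In CD11c- macrophages, CGRP raised 2 of the 33 tested members, Npc2 and Soat1, and lowered 1, Mylip, where 5.32% of all tested genes rose and 3.89% fell. None of the 16 tested synthesis genes passed the edgeR test (2 at an unadjusted p under 0.05, 1 by DESeq2, none by limma-voom). Their median log2 fold change was -0.15, beside -0.02 over all tested genes, with 6 of 16 above 0. Mylip, also called Idol, encodes the ubiquitin ligase through which LXR lowers lipoprotein receptors (chr13:45389742-45412022). It had 397, 337 and 239 counts in IAIE control and 297, 260 and 350 in IAIE CGRP libraries, or 123, 96.6 and 107 CPM against 78.6, 63.2 and 66.00 CPM. In CD11c+ macrophages Mylip counts were 82, 252 and 207 and 245, 153 and 259, or 33.5, 58.9 and 44.4 CPM in control against 46.99, 37.9 and 46.1 CPM in CGRP libraries. The IAIE groups were apart and the CD11c groups overlapped. The 1.57-fold fall in CD11c- macrophages (log2 -0.65 ± 0.19 SE, edgeR adjusted p = 0.0309) was not called without IAIE control replicate 1 or 3 or IAIE CGRP replicate 2 or 3 (0.0731 to 0.135).

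Fdft1 had the largest upward estimate among the synthesis genes in CD11c- macrophages, from 10.9 ± 2.28 to 19.5 ± 6.58 CPM without overlap (log2 0.85 ± 0.28 SE, edgeR adjusted p = 0.0691). It passed with DESeq2 (0.0466) and after thinning (0.0401), and the limit on its strand given above applies here too. Dhcr7 went the other way, from 5.64 ± 2.47 to 2.00 ± 0.265 CPM without overlap (log2 -1.50 ± 0.63 SE, edgeR adjusted p = 0.158). Idi1 had a log2 estimate of -0.69 ± 0.38 (SE, edgeR adjusted p = 0.311). The other synthesis estimates were -0.81 ± 0.69 for Lss, -1.37 ± 1.09 for Tm7sf2 and -0.68 ± 0.77 for Hsd17b7, and between -0.32 ± 0.71 for Mvk and 0.48 ± 0.47 for Mvd in the rest (log2, SE). Among the other members, Apoe, the lipoprotein component that accepts cholesterol from macrophages, had a log2 fold change of 0.01 ± 0.21 and Abca1 of 0.12 ± 0.13 (SE, edgeR adjusted p = 0.991 and 0.679). Insig2 (0.93 ± 0.52), Nr1h2 (0.41 ± 0.17) and Fasn (-0.50 ± 0.23) did not pass (edgeR adjusted p 0.154 to 0.317). Nor did Srebf1, Srebf2, Scap, Insig1, Nr1h3, Abcg1, Scd2, Npc1 and Stard4.

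**Figure D4:**
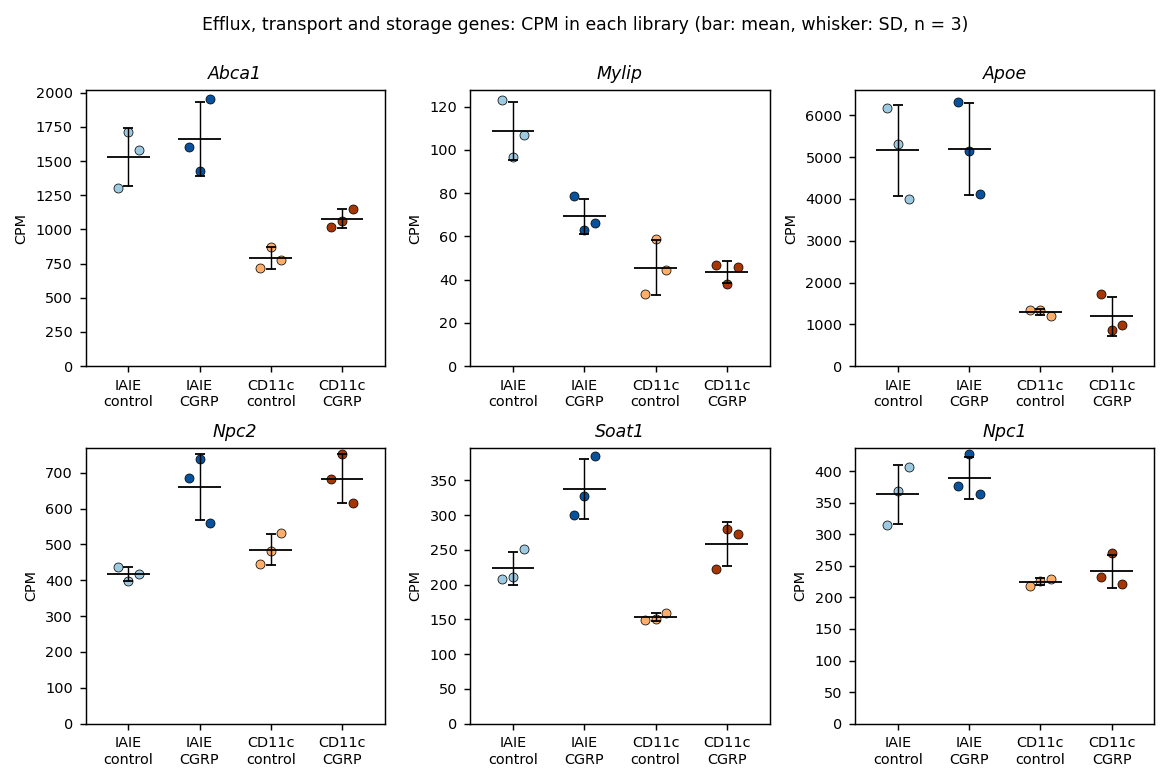
CPM (linear axes, TMM-scaled) of Abca1, Mylip, Apoe, Npc2, Soat1 and Npc1 in each library by subset and treatment. Points are libraries, bars group means and whiskers SD (n = 3). Npc2 and Soat1 are higher in CGRP than in control libraries of both subsets, Mylip is lower with CGRP in IAIE libraries, and Apoe is near 5159 ± 1096 CPM in IAIE control against 1299 ± 80.4 CPM in CD11c control libraries.

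The difference between the CGRP effects of the subsets was tested with an interaction term, the effect in CD11c+ minus that in CD11c- macrophages. No member passed (edgeR, 0 of 33; 5 at an unadjusted p under 0.05; 1 by DESeq2 and 0 by limma-voom), where 0.151% of all tested genes did. Thus, no synthesis gene called in CD11c+ macrophages alone was shown to respond differently in the other subset. Idi1 came closest, with a log2 difference of 2.30 ± 0.48 (SE, edgeR adjusted p = 0.0574), between log2 estimates of -0.69 ± 0.38 in CD11c- and 1.61 ± 0.29 in CD11c+ macrophages. It passed with DESeq2 (0.00509), with every gene of at least 1 count (0.00124), with the replicate number as a block (0.0465) and with 1 surrogate variable (0.0458). It also passed without CD11c CGRP replicate 1 (0.0448). The Idi1 interaction did not pass in edgeR with a block by treatment and replicate together, which pairs the subsets within a treatment. Over all 9 alternative fits that left out no library, including those just named, its adjusted p ran from 0.00124 (edgeR) to 0.335 (limma-voom). The interaction estimates were 0.96 ± 0.35 for Cyp51, 1.33 ± 0.52 for Sc5d, 0.45 ± 0.31 for Hmgcs1, 0.29 ± 0.30 for Msmo1 and 0.58 ± 0.27 for Mylip (log2, SE, edgeR adjusted p 0.390 to 0.875). They were -0.17 ± 0.18 for Npc2 and 0.16 ± 0.19 for Soat1, the genes that rose in both subsets.

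The subsets differed before any CGRP was added. Among control libraries, 8 of the 33 tested members were higher in CD11c+ than in CD11c- macrophages and 6 were lower, where 10.2% of all tested genes were higher and 10.9% lower. Of the 8 higher genes, 5 were synthesis enzymes, and all 6 lower genes were outside synthesis. Among synthesis genes, Pmvk was at 5.91 ± 2.27 CPM in CD11c- and 14.4 ± 6.02 CPM in CD11c+ macrophages (2.47-fold, edgeR adjusted p = 0.0264). This call was lost without IAIE control replicate 1 or 2 or CD11c control replicate 1 or 3 (0.0877 to 0.0972), and with 1 surrogate variable, the compared libraries alone, limma-voom or thinning (0.0596 to 0.0944). Fdft1 was at 10.9 ± 2.28 and 20.8 ± 0.368 CPM (1.92-fold, edgeR adjusted p = 0.0236; 0.105 without IAIE control replicate 2 and 0.0534 with limma-voom). The limit from its antisense overlap with Ctsb, given above, holds for this call as well. Idi1 was 3.04-fold higher, Cyp51 2.21-fold and Hmgcs1 1.93-fold (edgeR adjusted p = 0.00200, 0.00270 and 0.00479), each without overlap and in all 12 fits that left out 1 library.

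Srebf2 was 1.65-fold higher in CD11c+ macrophages (105 ± 3.53 against 173 ± 22.6 CPM, edgeR adjusted p = 5.28e-04). Insig1, a target and brake of SREBP, was 1.64-fold lower (99.7 ± 21.3 against 60.4 ± 8.94 CPM, edgeR adjusted p = 0.0146). This call was lost without IAIE control replicate 1 or CD11c control replicate 1 or 2 (0.0504 to 0.1003). Fatty acid synthase, Fasn, was 1.75-fold higher (34.2 ± 9.12 against 60.9 ± 13.8 CPM, edgeR adjusted p = 0.0139), but was not called without IAIE control replicate 3 (0.0655) or CD11c control replicate 1 (0.0705). Stard4 was 3.94-fold higher (2.47 ± 1.46 against 9.95 ± 3.58 CPM, edgeR adjusted p = 0.00617).

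Besides Insig1, the lower genes were Apoe, Mylip and Abca1 of LXR signalling and efflux, the lysosomal Npc1 and the storage gene Soat1. Apoe was 3.97-fold lower in CD11c+ macrophages, at 1338, 1352 and 1206 CPM against 6175, 5304 and 3997 CPM in CD11c- macrophages, the largest difference of the 6 (log2 -1.99 ± 0.22 SE, edgeR adjusted p = 2.24e-06; chr7:19696109-19699188). Mylip was 2.37-fold lower (edgeR adjusted p = 9.92e-05), Abca1 1.94-fold (4.52e-05), Npc1 1.62-fold (363 ± 46.6 against 225 ± 5.60 CPM, 6.44e-04) and Soat1 1.46-fold (0.00733; 0.0539 without CD11c control replicate 2). Abcg1, the exporter that loads mature HDL, was at 168 ± 35.9 against 185 ± 18.9 CPM (log2 0.15 ± 0.15 SE, edgeR adjusted p = 0.558). The LXR genes Nr1h2 and Nr1h3 had log2 differences of 0.33 ± 0.17 and -0.39 ± 0.53 (SE) that did not pass. Npc2, the lysosomal partner of Npc1, was not among the called genes. It was at 418 ± 19.6 CPM in CD11c- and 486 ± 43.7 CPM in CD11c+ macrophages. Dendritic cell markers, given above, were also higher in the CD11c+ libraries; their part in these differences was not tested.

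Among CGRP libraries, 8 of the 33 tested members were higher and 4 lower in CD11c+ macrophages, where 8.36% of all tested genes were higher and 8.51% lower. Hmgcs1, Pmvk, Idi1, Cyp51, Srebf2, Fasn and Stard4 were called higher in both comparisons. Msmo1 was called among CGRP libraries and Fdft1 among control libraries, but the interaction did not pass for either (0.29 ± 0.30 and -0.29 ± 0.39, log2, SE). Idi1 was 14.97-fold higher (log2 3.90 ± 0.34 SE, edgeR adjusted p = 1.39e-07), Cyp51 4.30-fold (4.51e-06) and Stard4 4.44-fold (0.00154). Pmvk was 3.35-fold higher (edgeR adjusted p = 0.00331), Hmgcs1 2.64-fold (9.40e-05) and Srebf2 2.16-fold (5.22e-06). Msmo1 (1.66-fold, edgeR adjusted p = 0.0181) was not called without IAIE CGRP replicate 1 or 2 or CD11c CGRP replicate 2 (0.0665 to 0.103). Fasn (1.68-fold, 0.0266) was not called without any 1 of the CGRP libraries other than CD11c CGRP replicate 2 (0.0545 to 0.105) or with 1 surrogate variable (0.113). Apoe was 4.35-fold lower (edgeR adjusted p = 1.00e-06), Npc1 1.61-fold (6.64e-04), Mylip 1.58-fold (0.0186; 0.101 without IAIE CGRP replicate 1, 0.0889 without CD11c CGRP replicate 2, 0.0743 with 1 surrogate variable and 0.0833 after thinning) and Abca1 1.54-fold (0.00264). With the replicate number as a block across all 4 groups, Soat1 was called lower in edgeR (adjusted p = 0.0242, 0.0542 without the block), and also with a block by treatment and replicate together (0.0170), which pairs the subsets within a treatment. Sqle was called higher with the first block (edgeR adjusted p = 0.0395, 0.0868 without it) but not with the second (0.0502). Both comparisons between subsets use libraries that also enter the CGRP contrasts, so they are not independent of them.

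**Figure D5:**
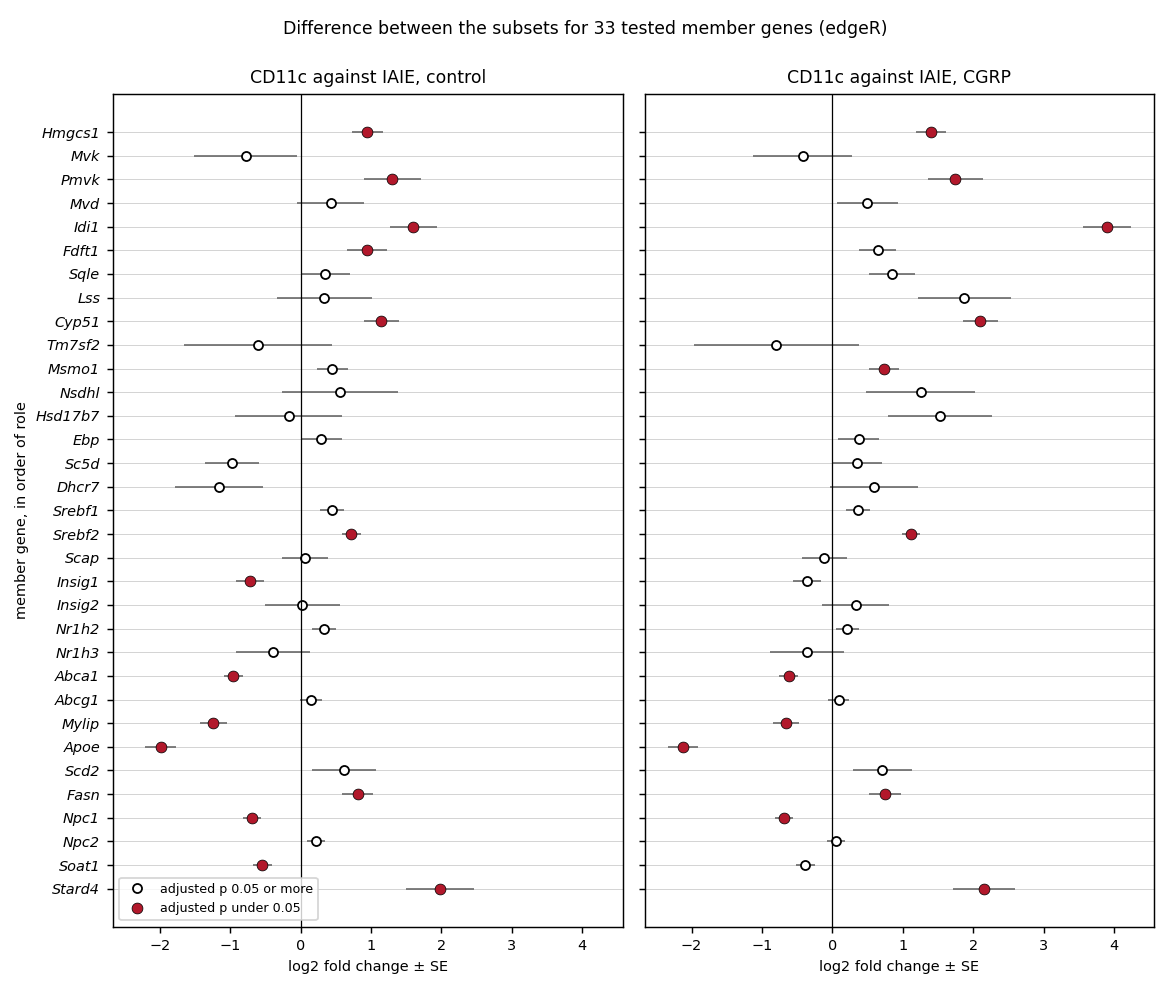
Log2 difference of CD11c against IAIE libraries (x axis, whiskers SE) for the 33 tested member genes in control (left) and CGRP (right) libraries, from the edgeR fit over 12 libraries. Filled points have an adjusted p under 0.05. Filled synthesis genes lie to the right of 0 in both panels, up to 3.90 ± 0.34 for Idi1 with CGRP, and Apoe lies farthest to the left, at -1.99 ± 0.22 and -2.12 ± 0.22.

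Compared per kilobase of exon, the members spanned a wide range of levels. In IAIE control libraries Apoe led with 2413 CPM per kb, followed by Abca1 with 148 and Npc2 with 76.9, while the synthesis genes lay between 0.165 for Fdps and 6.81 for Ebp. Apoe, Npc2 and Abca1 also led in CD11c control libraries, at 607, 89.3 and 76.1 CPM per kb. Among synthesis genes, Idi1 was at 4.95 CPM per kb in CD11c control libraries, below Pmvk (8.41), Ebp (8.22), Hmgcs1 (6.90), Mvd (5.79) and Cyp51 (5.32). In CD11c CGRP libraries Idi1 had the highest mean of the 17, 15.2 CPM per kb, ahead of Hmgcs1 (10.9), Pmvk (10.1) and Cyp51 (9.41). However, the library values of Idi1 overlapped those of Hmgcs1 and those of Pmvk.

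Genes around the pathway were listed beside the members, 68 in 8 lists, of which 61 were tested. In CD11c+ macrophages 9 of the 61 rose with CGRP and 6 fell, where 6.29% of all tested genes rose and 4.59% fell. In CD11c- macrophages 9 of the 61 rose and none fell, where 5.32% of all tested genes rose and 3.89% fell. The counts within each list are small and stand against the same shares. Of 10 tested genes of other fatty acid synthesis, 3 rose and 1 fell in CD11c+ macrophages. These included Acss2, which makes cytosolic acetyl-CoA from acetate (7.33 ± 4.18 to 37.8 ± 12.98 CPM, log2 2.33 ± 0.39 SE, edgeR adjusted p = 4.26e-04). Another was the malic enzyme Me1, a source of NADPH (3.11 ± 0.838 to 14.6 ± 5.52 CPM, log2 2.24 ± 0.43, 0.00153). The fatty acid elongase Elovl5 fell (72.1 ± 8.55 to 23.4 ± 8.44 CPM, log2 -1.61 ± 0.24 SE, edgeR adjusted p = 1.60e-04). In CD11c- macrophages 1 of the 10 rose, Me1 (3.19 ± 1.93 to 19.9 ± 3.30 CPM, log2 2.70 ± 0.44 SE, edgeR adjusted p = 5.06e-04). Acss2 was at 6.01 ± 0.193 CPM in IAIE control and 7.86 ± 2.98 CPM in IAIE CGRP libraries.

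Of 12 tested sterol carriers, Stard3, which tethers late endosomes to the endoplasmic reticulum, rose in CD11c- (log2 1.42 ± 0.27 SE, edgeR adjusted p = 0.00176) and in CD11c+ macrophages (log2 0.94 ± 0.26 SE, 0.0242). The CD11c+ call was lost without CD11c control replicate 1 or 2 or CD11c CGRP replicate 1 or 2 (0.0715 to 0.0945) and with the compared libraries alone (0.0517). Gramd1a, which moves plasma membrane cholesterol to the endoplasmic reticulum, fell in CD11c+ macrophages (log2 -1.20 ± 0.20 SE, edgeR adjusted p = 3.65e-04). Of 5 tested LXR targets outside the members, Arl4c rose in CD11c- macrophages (log2 0.63 ± 0.16 SE, edgeR adjusted p = 0.0140; 0.0754 without IAIE control replicate 1 and 0.0760 without IAIE CGRP replicate 2). In CD11c+ macrophages the phospholipid transfer protein Pltp (log2 -0.67 ± 0.14 SE, edgeR adjusted p = 0.00382) and the transporter Abca7 (-0.66 ± 0.20, 0.0362) fell. However, 19.3% of the Pltp exon length lies antisense to the gene Ctsa, and the strand setting of the counting is not given. Abca7 was not called without any 1 of the CD11c libraries other than CGRP replicate 2 (0.0515 to 0.152). None of the 7 tested genes of SREBP cleavage and sterol degradation control passed in either subset (edgeR; 2 at an unadjusted p under 0.05 in CD11c+ and 0 in CD11c- macrophages).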

How the data were processed

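Total RNA of sorted synovial macrophages was sequenced in 12 libraries of 4 groups. According to the labels and methods, the authors trimmed reads with Trim Galore, checked them with FastQC, used HISAT2 for alignment to mm10, and obtained gene counts from featureCounts; versions, annotation and strand setting are not given in the sources used here. The files the authors deposited hold raw read counts for each gene symbol, without normalisation. A combined table repeats these counts, and 6 further columns in it, which match no sample label, were not used. Counts were not collapsed by molecular identifiers, so floors cover counting error only.

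Genes were filtered with filterByExpr by group (minimum count 10, minimum total 15), scaled by TMM and fitted in 1 edgeR 4.0.16 quasi-likelihood model (R 4.3.3) with a mean per group and 5 contrasts. Adjusted p-values are Benjamini-Hochberg values over all 11927 tested genes from this fit unless another tool is named, with a threshold of 0.05; every comparison of many genes is two-sided. CPM are TMM-scaled. Alternatives comprised other scalings (RLE, upper quartile) and filters (all genes with 1 count or more, or 10 counts or more per library). Others were a block for the replicate number or for treatment and replicate together, 1 surrogate variable (sva 3.50.0), fits to only the libraries compared, DESeq2 1.42.0, limma-voom weighted by library quality (limma 3.58.1), thinning to the lowest total, and leaving out each library. The tests were checked on simulated counts.

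Labels do not say what replicate numbers mark. Over 5411 genes (mean CPM 20 or more), deviations from group means of CGRP libraries with equal numbers correlated across subsets (0.331, 0.117 and 0.191). All exceeded 0.1, and the block was read as pairing these libraries.

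Members, gene lists, motifs and tests were chosen with earlier results of these data known. All 34 members are named; those called for CGRP are given by library, those called only between subsets by group, and, of the 8 surrounding lists, at most the 3 largest called genes per CGRP contrast. Marker lists of macrophages, dendritic cells, MHC class II, fibroblasts, chondrocytes and mural cells are given in the text. Those of endothelial cells, adipocytes, Schwann cells, skeletal muscle, B cells, T cells, neutrophils and mast cells summed to 0 to 186 CPM per library. B cell markers were lower with CGRP without overlap in both subsets. Their sums were 53.7 to 111 (control) and 22.0 to 42.0 CPM (CGRP) in IAIE libraries. In CD11c libraries they were 7.94 to 13.1 and 1.42 to 5.56 CPM. In IAIE libraries, endothelial markers were higher with CGRP (14.6 to 19.7 against 25.8 to 37.2 CPM). Skeletal muscle markers were lower there (8.60 to 13.3 against 3.77 to 8.26 CPM). The rest overlapped between treatments. Exon lengths, overlaps and shared 50-base words come from GENCODE M21, and promoter windows from RefSeq. Proteins were not analysed here.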

Additional observations from a re-analysis of the deposited data

How the results depend on the processing

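The results were recomputed in 9 to 11 other fits and in 12 without 1 library each, and no call of a member changed direction in any of them. For CGRP in CD11c+ macrophages, 8 members were called; the number was 4 after thinning all libraries to the lowest total, and 2 to 8 without 1 library, with 2 without CD11c control replicate 1, 3 without CD11c control replicate 2 or 3 or CD11c CGRP replicate 1 or 2, and 4 without CD11c CGRP replicate 3. The interaction gave 0 members, and 1 (Idi1) with every gene of at least 1 count, with the replicate number as a block, with 1 surrogate variable and with DESeq2, and 0 to 1 without 1 library. The remaining counts moved by no more than 1.5 times: 2 to 4 for CGRP in CD11c- macrophages, 11 to 15 between the subsets in control and 10 to 16 in CGRP libraries. Of the 37 calls over all comparisons, DESeq2 kept 37 and added 4, limma-voom with quality weights kept 35 and added 6, upper-quartile scaling kept 35, RLE scaling 36, and thinning 31. Replicate numbers were taken to pair only the CGRP libraries of the subsets; in the other comparisons not every same-numbered pair correlated over 0.1, so the samples there share only a number. The replicate block kept 36 of the 37 calls, losing Hmgcs1 in CD11c+ macrophages (adjusted p = 0.0548), and added 3, and a block by treatment and replicate together kept all 26 between the subsets and added 2. Low counts limit Tm7sf2, Mvk, Dhcr7, Nsdhl, Lss, Hsd17b7 and Fdps: log2 SEs of the 6 tested reached 1.13 for CGRP in CD11c+ macrophages.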

Other observations

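Of 8 tested receptors of lipoprotein uptake, 3 rose with CGRP in CD11c- macrophages and 5 did not pass, where 5.32% of all tested genes rose. In CD11c+ macrophages 3 rose, 1 fell and 4 did not pass, where 6.29% of all tested genes rose and 4.59% fell. Cd36, a receptor for oxidised lipoproteins and fatty acids, went from 1114 ± 16.5 to 1889 ± 373 CPM (mean ± SD, n = 3) in CD11c- macrophages (log2 0.76 ± 0.14 SE, edgeR adjusted p = 9.63e-04). In CD11c+ macrophages Cd36 went from 777 ± 23.96 to 2193 ± 307 CPM (log2 1.50 ± 0.14 SE, 1.32e-06). The scavenger receptor Msr1 rose in CD11c- (log2 0.99 ± 0.20 SE, edgeR adjusted p = 0.00244) and CD11c+ macrophages (log2 1.40 ± 0.21 SE, 1.68e-04). The oxidised lipoprotein receptor gene Olr1 fell in CD11c+ macrophages, from 41.1 ± 22.00 to 13.2 ± 0.840 CPM (log2 -1.61 ± 0.34 SE, edgeR adjusted p = 0.00333). Lrp8 rose in CD11c- macrophages with an adjusted p of 0.0491 by edgeR (log2 0.93 ± 0.29 SE), which was lost in 8 of the 12 fits without 1 library (without IAIE control replicate 1 or 2, CD11c control replicate 1 or 3, IAIE CGRP replicate 2 or 3, or CD11c CGRP replicate 2 or 3, 0.0508 to 0.223) and in 6 of the 10 other fits (0.0509 to 0.0763).

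Of 6 tested genes of cholesteryl esters and lipid droplets, the lysosomal lipase Lipa (log2 0.92 ± 0.15 SE, edgeR adjusted p = 4.88e-04) and the droplet coat protein Plin2 (0.54 ± 0.12, 0.00636) rose in CD11c- macrophages. In CD11c+ macrophages Plin2 rose (log2 0.77 ± 0.12 SE, edgeR adjusted p = 2.29e-04) and the ester hydrolase Nceh1 fell (-0.93 ± 0.18, 0.00155). Of 10 tested genes of the isoprenoid branch, Nus1, a subunit of the dolichol-making prenyltransferase, rose in CD11c- (log2 0.88 ± 0.15 SE, edgeR adjusted p = 5.72e-04) and CD11c+ macrophages (0.54 ± 0.15, 0.0209). The CD11c+ call was lost without CD11c control replicate 1 or 3 or any 1 of the 3 CD11c CGRP libraries (0.0566 to 0.131). Of 3 tested oxysterol genes none passed for CGRP in either subset (edgeR; 1 at an unadjusted p under 0.05 in CD11c+ and 0 in CD11c- macrophages).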
